A study of Mus musculus with 22 samples.

Results

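The 4 Id genes (Id1, Id2, Id3 and Id4), the ligand Bmp4, the feedback genes Bambi and Smad6 and the homeobox gene Msx2 were followed in mouse pluripotent stem cells grown with and without serum. They were taken by name as genes of bone morphogenetic protein (BMP) signalling, and all 8 were measured among the 19938 genes of the arrays, each by 1 probe set. RNA of 22 samples was hybridised to Affymetrix mouse gene arrays, 1 array per sample, in 5 groups of embryonic germ (EG) and embryonic stem (ES) lines. EG lines are pluripotent lines started from primordial germ cells, here of embryos at embryonic day 8.5, and ES lines are started from blastocysts. The EG lines were derived and kept in serum (EG FCS, 4 arrays), started in serum for 2 days and then moved to 2i (EG 2is, 4 arrays), or derived directly in 2i (EG 2i, 4 arrays). The ES lines were derived in serum or in 2i and, once established, also switched to the other culture, which gave ES FCS (5 arrays) and ES 2i (5 arrays). An ES line can therefore stand in both ES groups.

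Every line came from 129SvEv crosses carrying the Oct4-delta-PE-GFP transgene, on a mixed background, and both cultures contained leukaemia inhibitory factor. Serum culture was DMEM-F12 with 15% fetal calf serum (FCS) on a mouse embryonic fibroblast feeder layer. The 2i culture was serum-free N2B27 with the MEK inhibitor PD0325901 and the GSK3 inhibitor CHIR99021, on laminin. Serum, inhibitors and feeder layer changed together, so their shares in a difference between cultures cannot be told apart. Female lines gave 1 of the 4 EG FCS arrays, 2 of the 4 EG 2is arrays, 3 of the 4 EG 2i arrays and 2 of the 5 arrays in each ES group. All 12 EG arrays and 4 ES arrays, 2 of each culture, carried the batch label 1, and the other 6 ES arrays the batch label 2. The cell-type label read EGCs on all 22 arrays, the 10 ES arrays included, and the groups here follow the titles and source names.

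BMP ligands bind pairs of type I and type II receptor kinases, which phosphorylate SMAD1, SMAD5 and SMAD9. These join SMAD4, enter the nucleus and switch on target genes, among them the Id genes and inhibitors that feed back on the pathway. ID proteins have a helix-loop-helix domain without the DNA-binding basic region. They bind E-proteins and so keep lineage factors of the basic helix-loop-helix family from acting. In mouse ES cells, BMP from serum or added to serum-free medium is known to act together with leukaemia inhibitory factor through Id genes to hold back neural differentiation. N2B27 has no BMP added to it. Id genes are also known to respond to other inputs of serum culture, including ERK signalling and growth factor-induced immediate early factors.

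The deposited values were log2 RMA values, in which a difference of 1 is a doubling, and they ran from 3.63 to 13.88. A level of 4.88, the highest value of the Y-linked gene Eif2s3y in the female lines, served as the background level. The mean of 8 pluripotency markers lay between 10.91 and 11.22 on every array, and in each of the 3 comparisons of 2i or 2is with FCS 2 of the 8 were called higher and 1 lower. In EG 2i these were Nanog (0.73, adjusted p = 0.00430) and Esrrb (0.34, adjusted p = 0.0481), both higher, and Tdgf1 (-0.63, adjusted p = 7.3e-04). In EG 2is they were the same genes, and in ES 2i Fgf4 (0.59, adjusted p = 2.8e-04) stood in place of Esrrb. Pou5f1 and Sox2 were called in none of the 3. Of all genes 23.9% were called in EG 2i, 25.6% in EG 2is and 31.6% in ES 2i, each against FCS. Dusp6 and Egr1, targets of the ERK pathway that PD0325901 blocks, fell in EG 2i against EG FCS, with log2 differences of -3.62 (SE 0.21, adjusted p = 1.6e-09) and -2.09 (SE 0.10, adjusted p = 3.4e-10). The EG 2i mean of Egr1 (4.78) was below the background level, so the size of its fall is not measured. All differences below come from one limma fit over all 19938 genes and 22 arrays with terms for group, batch and sex. The call threshold was an adjusted p of 0.05, by Benjamini-Hochberg over all genes.

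To show what the Id genes carry just upstream, the 250 bases before the RefSeq start of Id2 and Id3, which fell in 2i, and of Id4, which was not called in any comparison, are given 5′ to 3′ on the gene's strand (RefSeq, GRCm38.p6). The stretches lie at chr12:25096093-25096342 (minus strand, Id2), chr4:136143572-136143821 (plus strand, Id3) and chr13:48260866-48261115 (plus strand, Id4), just upstream of the annotated start of each gene. Capitals mark GGCGCC (a GC-rich element described for SMAD1 and SMAD5), CAGAC (the SMAD box) and CCAAT (the box bound by NF-Y), each searched on both strands, so that CAGAC also appears as GTCTG and CCAAT as ATTGG.
Id2: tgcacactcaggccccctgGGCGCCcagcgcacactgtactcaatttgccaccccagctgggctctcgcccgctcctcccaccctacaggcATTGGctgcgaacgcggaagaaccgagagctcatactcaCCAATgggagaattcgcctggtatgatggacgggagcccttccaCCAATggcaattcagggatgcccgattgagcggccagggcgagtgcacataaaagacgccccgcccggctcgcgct
Id3: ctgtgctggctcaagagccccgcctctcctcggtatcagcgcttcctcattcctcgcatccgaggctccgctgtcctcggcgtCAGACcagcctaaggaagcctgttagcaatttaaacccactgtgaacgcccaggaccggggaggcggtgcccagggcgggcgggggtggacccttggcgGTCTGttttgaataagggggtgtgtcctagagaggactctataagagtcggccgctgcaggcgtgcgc
Id4: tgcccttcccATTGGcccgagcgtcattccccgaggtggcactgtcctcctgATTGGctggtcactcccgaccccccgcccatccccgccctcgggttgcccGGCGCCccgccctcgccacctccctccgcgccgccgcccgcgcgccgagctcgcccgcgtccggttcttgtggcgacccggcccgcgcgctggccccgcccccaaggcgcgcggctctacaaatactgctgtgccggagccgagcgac
Of the 8 genes, 6 had an entry in the table; Id1 and Bambi did not. Id2 held GGCGCC 231 bases before the start and 3 CCAAT boxes, at 159, 120 and 76 bases. Id3 held 2 SMAD boxes, 167 and 68 bases before the start, and neither of the other elements. Id4 held GGCGCC at 148 bases and 2 CCAAT boxes at 240 and 198 bases. Msx2 held 1 CCAAT box at 124 bases, and Bmp4 and Smad6 held none of the 3 elements. GCGTGGGCG, the EGR1 element, was in none of the 6. Of 32851 promoter windows of the same kind, 9.59% held GGCGCC, 42.2% CAGAC, 33.8% CCAAT and 0.536% GCGTGGGCG, and no matches overlapped. Id2 and Id4 both held GGCGCC and CCAAT. Whether any of these elements bears on the difference between cultures was not tested.

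Against EG FCS, 5 of the 8 genes were called in EG 2i, where 23.9% of all genes were called, and all 5 were lower, against 12.5% of all genes called lower. The same 5 (Id1, Id2, Id3, Bmp4 and Bambi) were called lower in EG 2is against EG FCS, where 25.6% of all genes were called and 12.9% were called lower. These comparisons share the 4 EG FCS arrays. In ES 2i against ES FCS, on other arrays, 4 were called lower (Id1, Id2, Id3 and Bmp4), where 31.6% of all genes were called and 14.9% were called lower. Genes called lower in 2i in both EG and ES lines made up 8.22% of all genes and included these 4. Id4, Smad6 and Msx2 were called in none of the 3 comparisons. The median difference of the 8 genes was -0.77 in EG 2i, -0.87 in EG 2is and -0.61 in ES 2i, where the median over all genes was 0.01, -0.01 and 0.00.

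**Figure D1:**
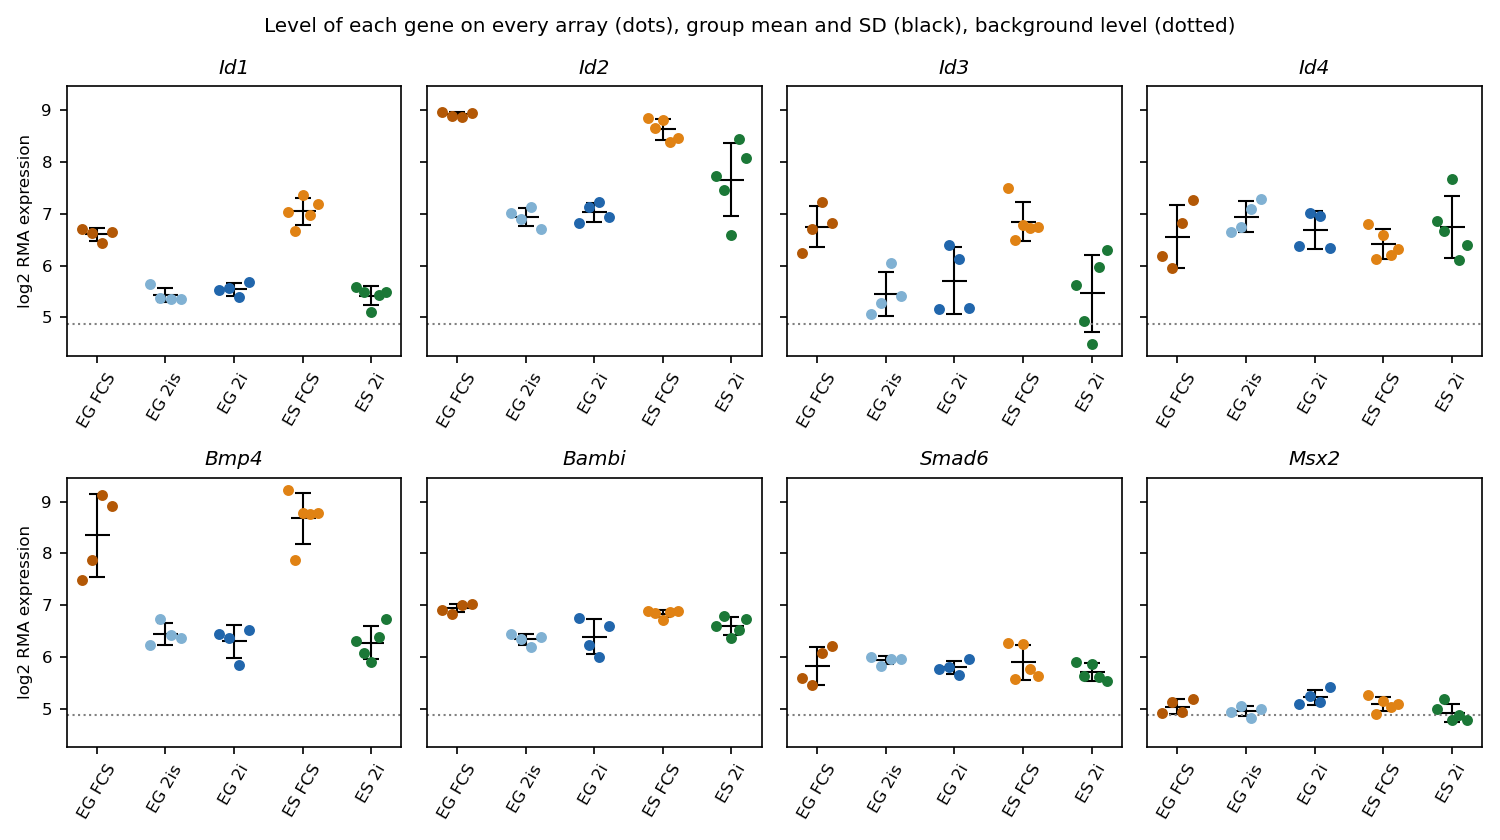
Log2 RMA level (y axis) of each of the 8 genes on every array, by group (x axis); dots are arrays, black bars the group mean and SD, and the dotted line the background level of 4.88. Id1 and Bmp4 lie lower on every 2i and 2is array than on every FCS array, while Id4, Smad6 and Msx2 overlap between cultures.

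Id1, the Id gene most often read as a direct BMP-SMAD target, stood at 6.71, 6.62, 6.43 and 6.64 on the 4 EG FCS arrays and at 5.52, 5.56, 5.39 and 5.69 on the EG 2i arrays. The EG 2is arrays read 5.65, 5.38, 5.35 and 5.35. The ES FCS arrays read 7.04, 6.67, 7.36, 6.98 and 7.18, against 5.58, 5.49, 5.10, 5.43 and 5.49 in ES 2i. Every serum array was thus above every array without serum, in EG and in ES lines; of all genes 12.8% were lower without overlap in EG 2i, 12.3% in EG 2is and 10.6% in ES 2i. Id1 was 2.08-fold lower in EG 2i than in EG FCS (log2 difference -1.06, SE 0.13, adjusted p = 1.0e-05) and 2.25-fold lower in EG 2is (log2 difference -1.17, SE 0.13, adjusted p = 1.6e-06). In ES 2i it was 3.09-fold lower (log2 difference -1.63, SE 0.11, adjusted p = 3.8e-09). Within batch 1 the ES difference was -1.32 and within batch 2 it was -1.83, both called. In order of group means, ES FCS (7.05 ± 0.26, SD, n = 5) and EG FCS (6.60 ± 0.12, n = 4) led, followed by EG 2i (5.54 ± 0.13, n = 4), EG 2is (5.43 ± 0.14, n = 4) and ES 2i (5.42 ± 0.19, n = 5). Only the step from EG FCS to EG 2i was called among the neighbours in this order.

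Id2, which binds E-proteins like Id1 and is widely used as a readout of TGF-beta family signals, read 8.97, 8.89, 8.87 and 8.94 in EG FCS, the narrowest group of any of the 8 genes (SD 0.04). It read 6.82, 7.13, 7.22 and 6.94 in EG 2i and 7.02, 6.89, 7.13 and 6.71 in EG 2is. The ES FCS arrays read 8.84, 8.66, 8.81, 8.39 and 8.47 and the ES 2i arrays 7.72, 7.46, 6.59, 8.44 and 8.08. In EG lines the cultures were far apart, while the highest ES 2i array lay above the lowest ES FCS array. Id2 was 3.57-fold lower in EG 2i (log2 difference -1.83, SE 0.26, adjusted p = 3.9e-05) and 3.88-fold lower in EG 2is (log2 difference -1.96, SE 0.25, adjusted p = 9.9e-06). In ES 2i it was 1.97-fold lower (log2 difference -0.98, SE 0.22, adjusted p = 0.00188). Within batch the ES difference was -1.16 in batch 1 (adjusted p = 5.9e-04) and -0.85 in batch 2 (adjusted p = 0.171), so it was called in batch 1 alone. The order of means ran from EG FCS (8.92 ± 0.04, SD, n = 4) and ES FCS (8.63 ± 0.20, n = 5) through ES 2i (7.66 ± 0.70, n = 5) to EG 2i (7.03 ± 0.18, n = 4) and EG 2is (6.94 ± 0.18, n = 4). Of these neighbours only ES FCS and ES 2i differed by a call.

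Id3, often induced together with Id1, read 6.25, 6.71, 7.22 and 6.82 in EG FCS. It read 5.16, 6.39, 6.12 and 5.18 in EG 2i and 5.06, 5.28, 6.04 and 5.42 in EG 2is. The ES FCS arrays read 7.50, 6.49, 6.79, 6.72 and 6.74, against 5.62, 4.93, 4.49, 5.97 and 6.30 in ES 2i. EG 2i fell into a pair near 5.2 and a pair above 6, and 1 ES 2i array was below the background level. Id3 was 2.50-fold lower in EG 2is (log2 difference -1.32, SE 0.37, adjusted p = 0.0114) and 2.61-fold lower in ES 2i (log2 difference -1.38, SE 0.33, adjusted p = 0.00250), without overlap between the groups. Within batch the ES difference was -1.72 in batch 1 and -1.16 in batch 2 (adjusted p = 0.0440). In EG 2i it was 2.11-fold lower with overlapping groups (log2 difference -1.08, SE 0.38, adjusted p = 0.0465). That call was lost without EG FCS array 2 (adjusted p = 0.0756), 3 (0.111) or 4 (0.0789), without EG 2i array 1 (0.113) or 4 (0.205), with the EG 2i and EG FCS arrays fitted alone (0.0774) and with a robust trended prior (0.0614). The means were 6.85 ± 0.38 (SD, n = 5) in ES FCS, 6.75 ± 0.40 (n = 4) in EG FCS, 5.71 ± 0.64 (n = 4) in EG 2i, 5.46 ± 0.74 (n = 5) in ES 2i and 5.45 ± 0.42 (n = 4) in EG 2is. Among these neighbours EG FCS and EG 2i alone differed by a call.

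Id4, the Id gene that can also oppose the other ID proteins, ranged from 5.96 to 7.27 in EG FCS, from 6.34 to 7.02 in EG 2i, from 6.65 to 7.29 in EG 2is, from 6.12 to 6.81 in ES FCS and from 6.10 to 7.68 in ES 2i. These ranges overlapped throughout. The group means, between 6.41 ± 0.29 (ES FCS, SD, n = 5) and 6.94 ± 0.30 (EG 2is, n = 4), had no neighbours that differed by a call. The differences were -0.10 in EG 2i (95% interval -0.68 to 0.48, adjusted p = 0.849), 0.27 in EG 2is (-0.29 to 0.83, adjusted p = 0.526) and 0.34 in ES 2i (-0.16 to 0.83, adjusted p = 0.331). The EG 2i mean (6.68) was above the EG FCS mean (6.56), and the fitted difference had the sign of the means without the sex term. The intervals leave room for a fall of up to 0.68 in EG 2i and 0.16 in ES 2i. They do not reach the differences fitted for Id1.

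Bmp4, the BMP ligand of the group and one that ES cells make themselves, read 7.48, 7.87, 9.12 and 8.92 in EG FCS. It read 6.45, 6.37, 5.85 and 6.53 in EG 2i and 6.24, 6.74, 6.43 and 6.36 in EG 2is. The ES FCS arrays read 9.23, 7.87, 8.79, 8.76 and 8.78, against 6.30, 6.07, 5.90, 6.38 and 6.74 in ES 2i. Every serum array lay above every array without serum, and EG FCS held a low and a high pair. The fall was 3.90-fold in EG 2i (log2 difference -1.97, SE 0.32, adjusted p = 1.6e-04), 3.64-fold in EG 2is (log2 difference -1.86, SE 0.31, adjusted p = 1.5e-04) and 5.30-fold in ES 2i (log2 difference -2.41, SE 0.27, adjusted p = 1.5e-06). Within batch the ES difference was -2.37 in batch 1 and -2.43 in batch 2. The means were 8.68 ± 0.49 (SD, n = 5) in ES FCS and 8.35 ± 0.80 (n = 4) in EG FCS, and 6.44 ± 0.21 (n = 4), 6.30 ± 0.31 (n = 4) and 6.28 ± 0.32 (n = 5) in EG 2is, EG 2i and ES 2i. The serum groups did not differ by a call from each other, and neither did the 3 groups without serum. Among the 8 genes Bmp4 had the largest fitted difference between cultures in EG 2i and in ES 2i, and Id2 in EG 2is.

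Bambi, a membrane pseudoreceptor that blocks BMP and TGF-beta receptor complexes, read 6.91, 6.84, 7.01 and 7.02 in EG FCS, 6.75, 6.24, 6.0 and 6.59 in EG 2i and 6.44, 6.34, 6.20 and 6.39 in EG 2is. All 8 EG arrays without serum lay below all 4 EG FCS arrays. The ES FCS arrays read 6.89, 6.85, 6.71, 6.86 and 6.89, and the ES 2i arrays 6.60, 6.80, 6.36, 6.53 and 6.73, which overlapped. Bambi was 1.40-fold lower in EG 2i (log2 difference -0.48, SE 0.12, adjusted p = 0.00493) and 1.48-fold lower in EG 2is (log2 difference -0.57, SE 0.11, adjusted p = 8.7e-04). The EG 2i call was lost in male lines alone, with 1 EG 2i array whose spread is taken from the other groups (-0.37, adjusted p = 0.0795) and with the EG 2i and EG FCS arrays fitted alone (adjusted p = 0.0902). In ES 2i the difference was -0.24 (95% interval -0.45 to -0.03, adjusted p = 0.0824). It was called with the ES arrays fitted alone (adjusted p = 0.0199), after a second quantile normalization (-0.31, adjusted p = 0.0290) and within batch 2 (-0.28, adjusted p = 0.0306), and not within batch 1 (-0.17, adjusted p = 0.454). From EG FCS (6.95 ± 0.08, SD, n = 4) down through ES FCS (6.84 ± 0.07, n = 5), ES 2i (6.60 ± 0.17, n = 5) and EG 2i (6.39 ± 0.34, n = 4) to EG 2is (6.34 ± 0.10, n = 4), no neighbours differed by a call.

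Smad6, the inhibitory SMAD that BMP signalling induces against itself, ranged from 5.45 to 6.21 in EG FCS, 5.66 to 5.96 in EG 2i, 5.83 to 6.0 in EG 2is, 5.57 to 6.28 in ES FCS and 5.53 to 5.91 in ES 2i. Unlike the Id genes that fell, it overlapped between every pair of groups within a cell origin. Its differences were -0.11 in EG 2i (95% interval -0.47 to 0.25, not called), 0.07 in EG 2is (-0.28 to 0.41, adjusted p = 0.822) and -0.19 in ES 2i (-0.49 to 0.12, adjusted p = 0.384). The serum groups had the wider spread, with an SD of 0.37 in EG FCS and 0.34 in ES FCS against 0.08 to 0.17 in the groups without serum; this difference in spread was not tested.

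Msx2, a homeobox gene induced by BMP in many embryonic tissues, lay near the background level of 4.88 in all groups, between 4.78 and 5.43. It was above that level on 3 of the 4 EG 2is arrays and 2 of the 5 ES 2i arrays, and on all arrays of the other groups. The differences were 0.22 in EG 2i (95% interval 0.01 to 0.43, adjusted p = 0.129), -0.07 in EG 2is (-0.27 to 0.14, adjusted p = 0.694) and -0.17 in ES 2i (-0.35 to 0.01, adjusted p = 0.141). In ES lines it was called within batch 2 (-0.29, adjusted p = 0.0183) but was 0.00 in batch 1 (adjusted p = 0.992), and it was called without ES FCS array 2 (-0.27, adjusted p = 0.00667).

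**Figure D2:**
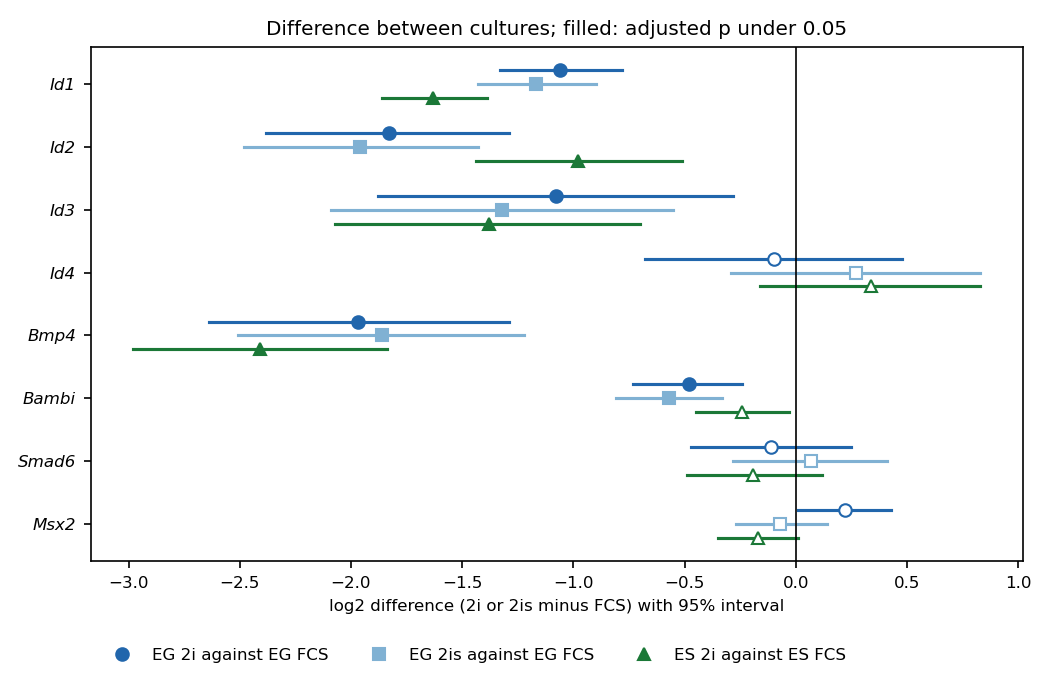
Log2 difference (x axis) between 2i or 2is and FCS for each gene (y axis) in EG 2i, EG 2is and ES lines, with 95% intervals as lines; filled symbols have an adjusted p under 0.05. Id1, Id2, Id3 and Bmp4 are filled on the negative side in all 3 comparisons, Bambi in both EG comparisons, and Id4, Smad6 and Msx2 in none.

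The route into 2i made no called difference for these genes. Between EG 2i and EG 2is 0 of the 8 were called, where limma called 0% of all genes (0 of 19938, with 2116 at an unadjusted p under 0.05). Msx2 was the one gene of the 8 whose groups did not overlap, with 5.09, 5.24, 5.13 and 5.43 in EG 2i against 4.93, 5.06, 4.83 and 5.00 in EG 2is. Its difference was 0.28 (95% interval 0.08 to 0.49, adjusted p = 0.299), and of all genes 1.83% did not overlap in this direction. For Id1 the interval of the difference was -0.16 to 0.38, for Id2 -0.40 to 0.65 and for Bmp4 -0.75 to 0.54.

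Cell origin was compared within each culture. In serum 0 of the 8 genes were called between EG FCS and ES FCS, where 0.01% of all genes were called (2 of 19938, with 979 at an unadjusted p under 0.05). Id1 was lower in EG FCS (6.60 against 7.05), with a difference of -0.41 (95% interval -0.70 to -0.12, unadjusted p = 0.00858, adjusted p = 0.943). Id2 was higher on all 4 EG FCS arrays than on all 5 ES FCS arrays, as were 1.5% of all genes, but its difference after the batch and sex terms was 0.23 (95% interval -0.34 to 0.81, adjusted p = 0.999). For Bmp4 the difference was -0.26 (95% interval -0.97 to 0.44, adjusted p = 0.999).

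In 2i 0 of the 8 were called between EG 2i and ES 2i, where 3.72% of all genes were called, and 0 between EG 2is and ES 2i, where 0.0451% were called. At an unadjusted p under 0.05 limma had 3742 and 1872 of all genes in these comparisons. Id2 had the lower mean in EG lines in both, with a difference of -0.63 (95% interval -1.20 to -0.05, adjusted p = 0.218) for EG 2i and -0.75 (-1.32 to -0.18, adjusted p = 0.383) for EG 2is. Neither was called, and this turned on ES 2i array 3, which at 6.59 had the lowest Id2 of the ES 2i group. Without it Id2 was called in EG 2i against ES 2i (-0.83, adjusted p = 0.0113) and in EG 2is against ES 2i (-0.90, adjusted p = 0.0375). All comparisons of origin lean on the batch term, which the ES arrays alone determine; without that term Msx2 was called higher in EG 2i than in ES 2i (0.32, adjusted p = 0.0422).

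Whether the fall from FCS to 2i differed between EG and ES lines was tested as the EG difference minus the ES difference. Of the 8 genes 0 were called, where 1.44% of all genes were called (287 of 19938, with 3149 at an unadjusted p under 0.05). For Id1 this value was 0.57 (95% interval 0.20 to 0.93, adjusted p = 0.103), and for Id2, on the other side of 0, it was -0.86 (95% interval -1.57 to -0.14, adjusted p = 0.214). The difference for Bmp4 was 0.44 (95% interval -0.44 to 1.32, adjusted p = 0.671), for Id3 0.30 (-0.75 to 1.36, adjusted p = 0.830) and for Bambi -0.25 (-0.57 to 0.08, adjusted p = 0.468). Leaving out single ES arrays brought calls. Without ES FCS array 2, Id1 (0.71, adjusted p = 0.0329) and Msx2 (0.52, adjusted p = 0.0253) were called. Without ES 2i array 3, Id2 was called (-1.27, adjusted p = 0.00982).

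The lines of a group were far from alike in some of these genes. The residual SD of the fit was 0.576 for Id3, larger than in 99.5% of all genes, 0.481 for Bmp4 (99%), 0.416 for Id4 (98.2%) and 0.389 for Id2 (97.6%). It was 0.251 for Smad6 (90.6%), 0.190 for Id1 (80.1%), 0.166 for Bambi (72.1%) and 0.137 for Msx2 (56.2%). These ranks are not matched for level, and 23.7% of all genes had a mean below the background level. ES 2i array 3 had the lowest Id1 (5.10), Id2 (6.59), Id3 (4.49), Bmp4 (5.90) and Bambi (6.36) of its group and the highest Id4 (7.68). Within EG FCS, arrays 3 and 4 were above arrays 1 and 2 in Bmp4, Id4 and Smad6, and Id3 was highest on array 3 (7.22) and lowest on array 1 (6.25). Within ES FCS, array 1 was the highest and array 2 the lowest in Bmp4 (9.23 and 7.87), Id3 (7.50 and 6.49), Id4 (6.81 and 6.12) and Smad6 (6.28 and 5.57). These patterns were read off the values and were not tested.

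**Figure D3:**
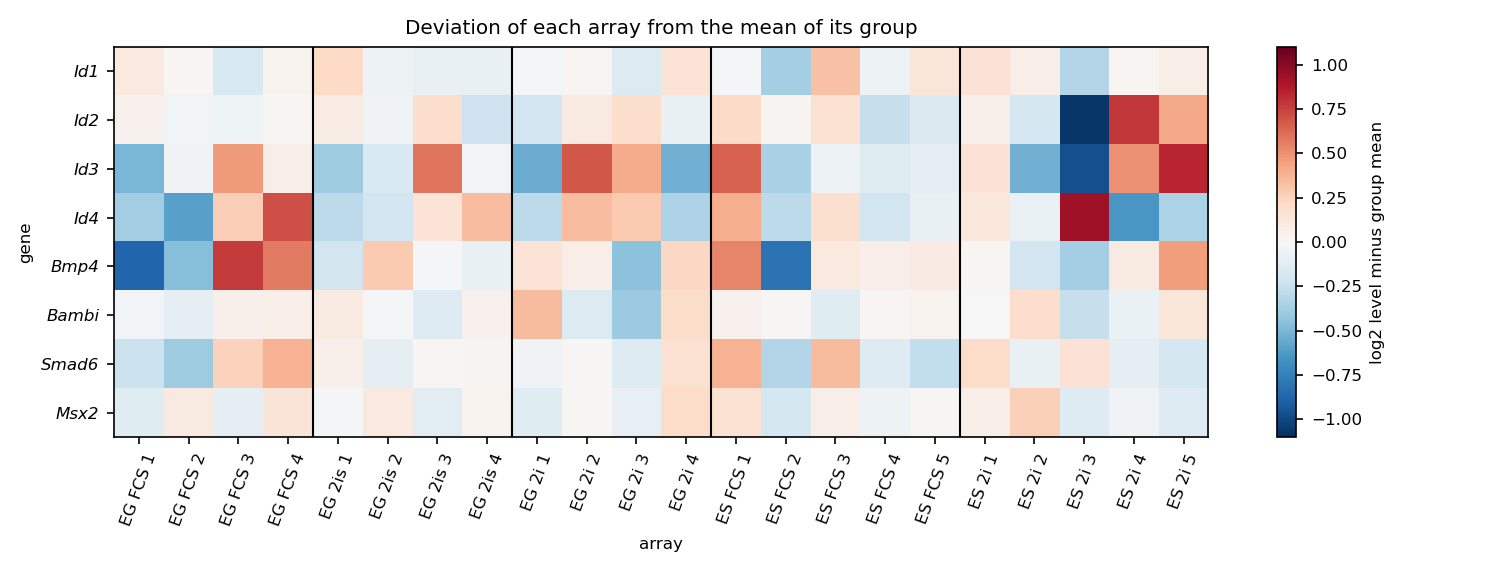
Deviation of each array (x axis) from the mean of its group for each of the 8 genes (y axis), in log2 units; red is above and blue below the group mean, and black lines part the groups. ES 2i array 3 is blue in Id1, Id2, Id3, Bmp4 and Bambi and red in Id4, and EG FCS arrays 1 and 2 are blue where arrays 3 and 4 are red in Bmp4, Id4 and Smad6.

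The other genes of the pathway were taken from lists of ligands, receptors, SMADs and their regulators, antagonists and modulators, target genes and E-proteins, which also hold the 8 genes. In EG 2i, EG 2is and ES 2i, each against FCS, 23.9%, 25.6% and 31.6% of all genes were called, the shares beside which the list counts stand. Of 16 BMP-type ligands, 2 were called higher and 1 lower in EG 2i, 1 higher and 2 lower in EG 2is, and 2 higher and 4 lower in ES 2i. The list medians of the ligands were -0.02, -0.03 and -0.02. Bmp7, a ligand of the same family that binds ACVR1 well, moved opposite to Bmp4. Its mean was 6.31 in EG FCS against 7.37 in EG 2i and 7.62 in EG 2is, and 6.01 in ES FCS against 7.21 in ES 2i. Bmp7 was 1.99-fold higher in EG 2i (log2 difference 0.99, SE 0.15, adjusted p = 8.1e-05), 2.44-fold higher in EG 2is (1.28, SE 0.15, adjusted p = 2.5e-06) and 2.29-fold higher in ES 2i (1.20, SE 0.13, adjusted p = 8.6e-07). The remaining called ligands moved by under 0.5 log2 units. They were Gdf7 in EG 2i (0.20, adjusted p = 0.0481), Bmp10 in EG 2is, and Bmp6 (-0.20), Bmp8a (0.17), Bmp8b and Bmp2 in ES 2i. Both means of Bmp10 (4.46 in EG 2is and 4.72 in EG FCS) and all arrays of Bmp2 were below the background level, and Bmp8b fell below it in ES 2i (mean 4.62 against 5.11 in ES FCS), so the sizes of these 3 differences are not measured. Bmp8a was near the background level too (4.95 against 4.78).

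Of 12 listed receptors and co-receptors 11 were measured, and 3 were called higher and 1 lower in EG 2i, 2 higher and 1 lower in EG 2is and 4 higher and 1 lower in ES 2i. The list medians were 0.23, 0.23 and 0.09, and of all genes 23.9%, 25.6% and 31.6% were called. Eng, the endoglin co-receptor for BMP9-type ligands, rose in EG 2i (1.18, SE 0.19, adjusted p = 1.4e-04), EG 2is (1.24, SE 0.18, adjusted p = 4.6e-05) and ES 2i (0.86, SE 0.16, adjusted p = 3.9e-04). Acvr1, a type I receptor that signals to the BMP SMADs, rose by 0.26, 0.29 and 0.38, and the type II receptor gene Acvr2b fell (differences of -0.42, -0.38 and -0.60), all called. Tgfbr3, the betaglycan co-receptor, was called higher in EG 2i (0.55) and ES 2i (0.52), and Rgma, a BMP co-receptor, in ES 2i (0.73, adjusted p = 0.0373). The main BMP type I receptor gene Bmpr1a stood between 8.39 and 8.58 in all groups and differed by 0.01 in EG 2i (95% interval -0.13 to 0.15, adjusted p = 0.949) and 0.11 in ES 2i (-0.01 to 0.23, adjusted p = 0.158). Bmpr2, the type II receptor, differed by 0.23 (adjusted p = 0.281) and 0.09 (adjusted p = 0.663).

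Of 12 SMADs and SMAD regulators, 2 were called higher and 4 lower in EG 2i and in EG 2is, and 2 higher and 5 lower in ES 2i. Of all genes 23.9%, 25.6% and 31.6% were called, and the list medians were -0.13, -0.03 and -0.16. Smad1, a BMP receptor substrate, rose by 0.42, 0.32 and 0.52 in EG 2i, EG 2is and ES 2i. Smad4, the shared partner, was called higher in EG 2i (0.37, adjusted p = 1.9e-04) and EG 2is (0.29, adjusted p = 9.4e-04), and Smad9 in ES 2i (0.35, adjusted p = 4.7e-04). The 4 genes that fell in all 3 comparisons were Skil, Ppm1a, Ski and Smurf1. Skil, a SMAD co-repressor that TGF-beta signals induce, fell, with differences of -1.25, -1.41 and -1.95 (adjusted p = 0.00127, 2.6e-04 and 1.2e-06). The differences were -0.62, -0.54 and -0.47 for Ppm1a, a SMAD phosphatase, -0.33, -0.34 and -0.38 for Ski, a co-repressor, and -0.45, -0.40 and -0.38 for Smurf1, a ubiquitin ligase for BMP SMADs. Smad7, the second inhibitory SMAD, was not called, with -0.42 in EG 2i (adjusted p = 0.117), -0.07 in EG 2is (adjusted p = 0.831) and 0.04 in ES 2i (adjusted p = 0.898).

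Of 19 listed antagonists and modulators, Bambi among them, 18 were measured. In EG 2i 0 were called higher and 4 lower, in EG 2is 0 and 6, and in ES 2i 1 and 6. Of all genes 23.9%, 25.6% and 31.6% were called, and the list medians were -0.08, -0.20 and -0.14. Grem1, the secreted BMP antagonist gremlin, fell in EG 2i (-0.85, SE 0.17, adjusted p = 8.5e-04), EG 2is (-0.67, SE 0.16, adjusted p = 0.00359) and ES 2i (-1.04, SE 0.14, adjusted p = 1.2e-05). Its 2i and 2is means lay between 4.82 and 5.14, close to the background level. Bmp1, a protease that cleaves chordin and is no BMP ligand, fell (-0.46, -0.53 and -0.86). Nbl1, a DAN-family antagonist, was also called lower (-0.29, -0.26 and -0.44). Its means were below the background level in EG FCS (4.87), EG 2i (4.61), EG 2is (4.62) and ES 2i (4.48) and just above it in ES FCS (4.91). The sizes of the Nbl1 differences are therefore not measured. Fstl3, a follistatin-like antagonist, was called lower in EG 2is (-0.35) and ES 2i (-0.57), Bmper in EG 2is (-0.25), and Crim1 (-0.58) in ES 2i. Cer1 was also called lower in ES 2i, but both of its ES means (4.24 and 4.50) were below the background level, so the size of its difference is not measured. Follistatin, Fst, was called higher in ES 2i (0.70, SE 0.24, adjusted p = 0.0325). Noggin, Nog, was not called, with differences of -0.13, -0.18 and -0.07.

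Of 18 BMP-SMAD target genes, which include 7 of the 8 genes, 1 was called higher and 4 lower in EG 2i. In EG 2is the counts were 1 and 5, and in ES 2i 2 and 6, with list medians of -0.07, -0.07 and -0.19. Of all genes 23.9%, 25.6% and 31.6% were called in these comparisons. The 4 called lower in EG 2i were Id1, Id2, Id3 and Bambi, so no target outside the 8 genes was called lower there. Tbx3, a T-box factor expressed in naive pluripotent cells, went up by 1.35 in EG 2i (SE 0.33, adjusted p = 0.00543), 1.23 in EG 2is (SE 0.32, adjusted p = 0.00717) and 1.62 in ES 2i (SE 0.28, adjusted p = 1.8e-04). Dusp9, an ERK phosphatase gene on the X chromosome that BMP is known to induce in ES cells, fell in EG 2is (-0.99, SE 0.26, adjusted p = 0.00674) and in ES 2i (-1.86, SE 0.23, adjusted p = 3.2e-06). In EG 2i, where 3 of 4 arrays were from female lines, its mean was 9.30 against 9.45 in EG FCS. The fitted difference, which includes the sex term, was -0.54 (95% interval -1.09 to 0.01, adjusted p = 0.158). Tfap2a was higher in ES 2i (1.82, SE 0.31, adjusted p = 1.5e-04) and Hey1 lower (-0.68, SE 0.11, adjusted p = 9.4e-05), as was Dlx5 (-0.20, adjusted p = 0.0340). The ES 2i mean of Dlx5 (4.81) was below the background level, and the ES FCS mean of Tfap2a (4.88) was at it. The sizes of the Dlx5 and Tfap2a differences are therefore not measured. Between EG 2i and ES 2i, Dusp9 was called higher in EG lines with the sex term in the fit (1.14, SE 0.28, adjusted p = 0.0298, overlapping groups). Female lines gave 3 of 4 EG 2i and 2 of 5 ES 2i arrays. Dusp9 was the 1 gene of the target list called there (3.72% of all genes were). Of the other pathway lists, Smad4 (0.24, adjusted p = 0.0418), Crim1 (0.68, adjusted p = 0.0456) and Tll1 (0.58, adjusted p = 0.0470) were called higher in EG 2i than in ES 2i, and no gene of these lists was called between EG FCS and ES FCS or between EG 2is and ES 2i. The differences between the EG and ES responses were not called for Dusp9 (1.32, adjusted p = 0.0626), Tfap2a (-1.22, adjusted p = 0.213) or Hey1 (0.46, adjusted p = 0.185). Msx1, the paralogue of Msx2, was not called, with 0.06, -0.05 and -0.12.

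**Figure D4:**
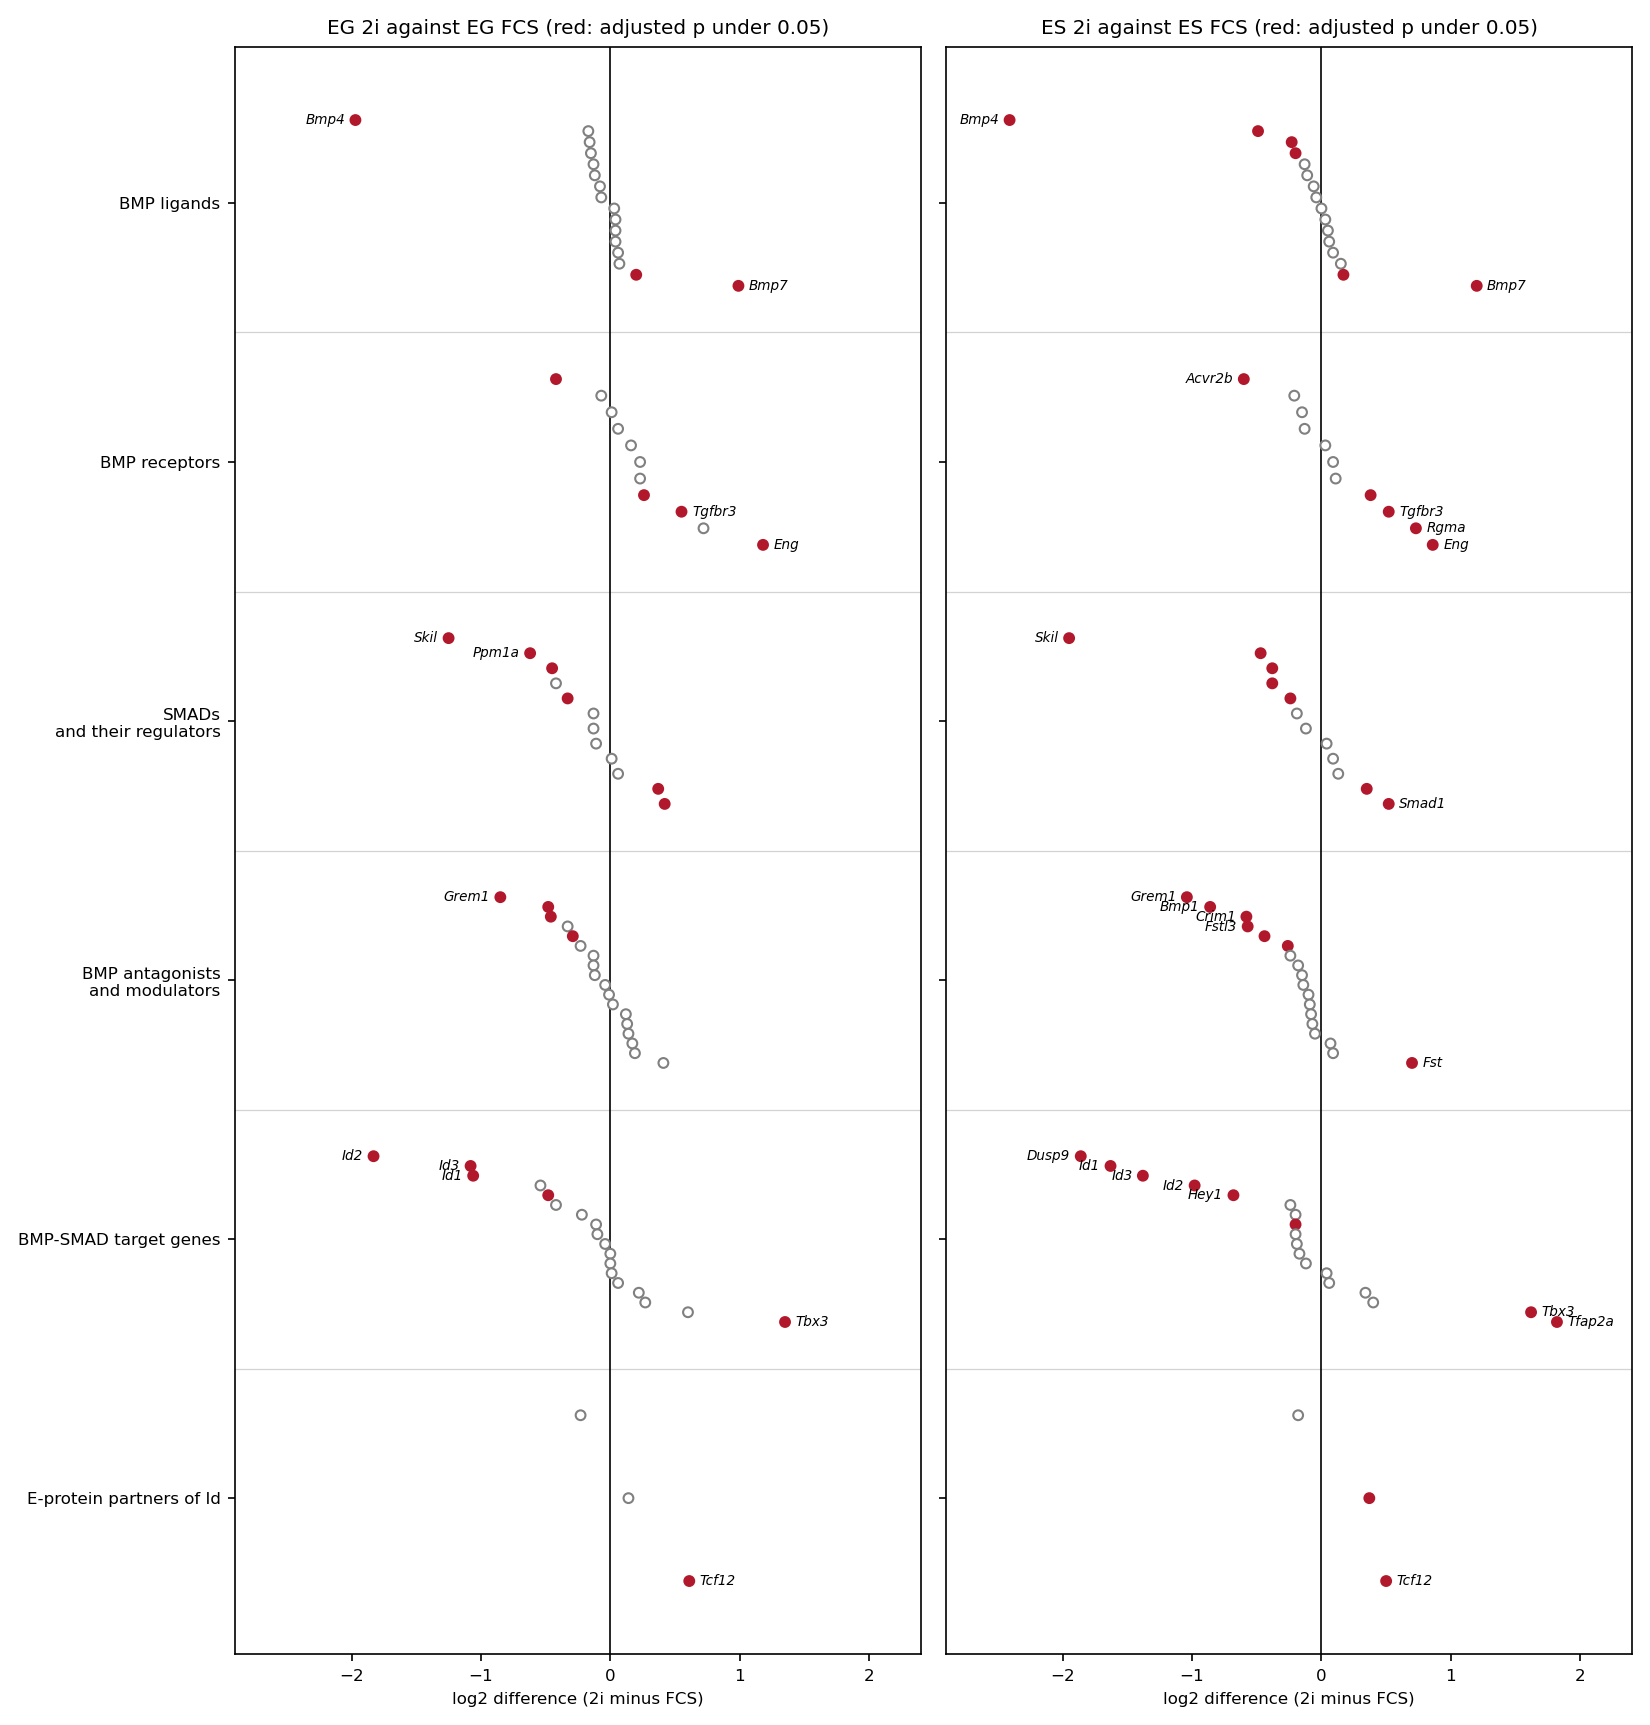
Log2 difference between 2i and FCS (x axis) in EG lines (left) and ES lines (right) for every measured gene of 6 lists (y axis), ordered within each list; red dots have an adjusted p under 0.05, and called genes that moved by 0.5 or more are named. Bmp4 and Bmp7 stand at opposite ends of the ligands, and Id2 and Tbx3 at opposite ends of the targets in EG lines; in ES lines Dusp9 and Tfap2a stand at the ends of the targets.

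Among the partners that ID proteins bind, Tcf12 (the E-protein HEB) rose by 0.61 in EG 2i (SE 0.11, adjusted p = 3.3e-04), 0.58 in EG 2is (SE 0.10, adjusted p = 3.2e-04) and 0.50 in ES 2i (SE 0.09, adjusted p = 2.6e-04). Tcf4 was called higher in ES 2i (0.37, adjusted p = 0.0464), and Tcf3 was not called, with -0.23 in EG 2i (adjusted p = 0.0589), -0.20 in EG 2is (adjusted p = 0.0953) and -0.18 in ES 2i (adjusted p = 0.0756). Of 12 neural factors of the basic helix-loop-helix family 11 were measured. In EG 2i 1 was called higher and 1 lower, in EG 2is 1 lower, and in ES 2i 4 lower, where 23.9%, 25.6% and 31.6% of all genes were called. Neurod1, a neuronal differentiation factor, fell, with differences of -1.43, -1.51 and -1.34 (adjusted p = 1.3e-04, 3.8e-05 and 2.4e-05), to means of 4.96, 4.90 and 4.75 in EG 2i, EG 2is and ES 2i that lay near the background level. Olig3 (-0.60), Neurog3 (-0.39) and Neurog1 (-0.19) were the others called lower in ES 2i. The ES 2i means of Neurog3 (4.77) and Neurog1 (4.86) were below the background level, so the sizes of their differences are not measured. Of 12 genes of differentiated derivatives 11 were measured, and 2 were called lower in EG 2i, 2 in EG 2is and 3 in ES 2i. Of all genes 12.5%, 12.9% and 14.9% were called lower there. Tfap2a was called higher in ES 2i. Krt18, a keratin, fell, with differences of -2.19, -1.97 and -2.16.

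Fibroblast marker levels moved with the cultures. The mean of 17 measured fibroblast markers was 5.74 to 6.45 on the EG FCS arrays and 5.77 to 6.35 on the ES FCS arrays, against 5.19 to 5.36 in EG 2is, 5.25 to 5.36 in EG 2i and 5.10 to 5.35 in ES 2i. Of the 17 markers 9 were called lower in EG 2i, 13 in EG 2is and 13 in ES 2i, where Timp1 was higher. Of all genes 12.5%, 12.9% and 14.9% were called lower in these comparisons. Acta2 (means of 9.52 in EG FCS and 5.04 in EG 2i) and Tagln (6.82 and 4.58) fell most in EG 2i, and so weigh most in the fall of the marker mean. Other markers, such as Dcn (4.88), Pdgfra (5.22) and Postn (5.26), had means near the background level already in EG FCS. Pdgfrb was higher in EG 2i without a call (0.41, adjusted p = 0.0652). Col1a1 had a mean of 7.06 ± 0.52 (SD, n = 4) in EG FCS and 6.78 ± 0.49 (n = 5) in ES FCS and of 5.47 to 5.55 in the other groups, and Lum, a further fibroblast marker, was below the background level on all arrays. In such bulk samples fewer cells of a type and less RNA per cell cannot be told apart. The part of feeder RNA in the lower Id and Bmp4 levels without serum was not tested. Within EG FCS, arrays 3 and 4 had the highest marker means (6.14 and 6.45) and the highest Bmp4 (9.12 and 8.92). Arrays 1 and 2 had marker means of 6.02 and 5.74 with Bmp4 at 7.48 and 7.87. Within ES FCS, array 2 had both the lowest marker mean (5.77) and the lowest Bmp4 (7.87), and array 1 the highest of both (6.35 and 9.23). Id2 stood between 8.87 and 8.97 in EG FCS, whereas in ES FCS it was highest on arrays 1 and 3 (8.84 and 8.81), which also had the highest marker means (6.35 and 6.15), and read 8.39 to 8.66 on the others. Id1 was lowest on array 3 (6.43) and highest on array 1 (6.71) in EG FCS. In ES FCS it was lowest on array 2 (6.67) and highest on array 3 (7.36).

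**Figure D5:**
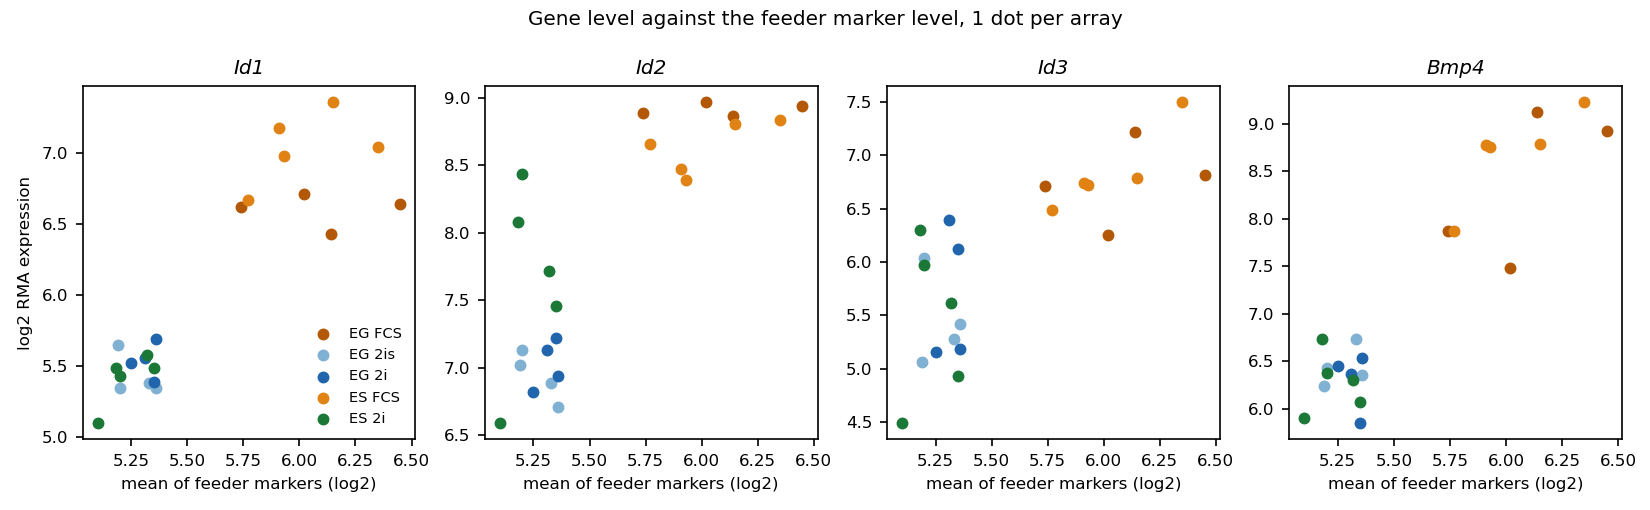
Log2 level of Id1, Id2, Id3 and Bmp4 (y axes) against the mean log2 level of 17 feeder fibroblast markers (x axis), 1 dot per array coloured by group. Serum arrays lie to the right with marker means of 5.74 to 6.45 and the other arrays to the left with 5.10 to 5.36. The serum arrays with the highest marker means have the highest Bmp4 in EG FCS (9.12 and 8.92) and the highest Id2 in ES FCS (8.84 and 8.81). In EG FCS, Id2 spans only 8.87 to 8.97, and Id1 is lowest on array 3 (6.43) and highest on array 1 (6.71).

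The genes most like each of the 8 were listed by Pearson's r over the 22 arrays, as a description; the arrays share groups, batches and, possibly, lines. For Id1 they were Cnksr1 (r = 0.982), Rgs16 (0.978) and Flnc (0.975), and for Id2 Actn4 (0.956), Dstn (0.941) and Dnmt3l (0.936). For Id3 they were Gstk1 (0.904), Ptar1 (0.898) and Rap1b (0.881). Bmp4 was most like Acta2 (0.955), Thbs1 (0.951) and Myc (0.945); Acta2 is one of the feeder markers. Bambi was most like Spag7 (0.938), Melk (0.891) and Dtl (0.888). For the genes that were not called between cultures they were Rapgef3 (0.885), Vangl1 (0.857) and Gas6 (0.854) for Id4, Pim1 (0.811), Ccnd3 (0.791) and B4galt1 (0.768) for Smad6 and Sphk1 (0.756), Baz1a (0.750) and Slfn2 (0.728) for Msx2.

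With group means taken out of the same 22 arrays, the closest were Pdxk-ps (0.863), Cnksr1 (0.837) and Gpr50 (0.808) for Id1, and Tmem62 (0.893), Sting1 (0.890) and Sh3d21 (0.883) for Id2. For Id3 they were Ptar1 (0.889), Sh2d4b (0.865) and Nefm (0.848), and for Id4 Gstm1 (0.911), Pcx (0.903) and Stard8 (0.902). Bmp4 was followed most closely by B4galt6 (0.862), Kit (0.858) and Edn1 (0.850), Bambi by Cbr4 (0.860), Spag7 (0.858) and Clip4 (0.823), Smad6 by Cd63 (0.904), Limk2 (0.895) and Cst3 (0.891), and Msx2 by Ism2 (0.795), Ubxn2a (0.774) and Spint3 (0.739). Cnksr1 for Id1, Ptar1 for Id3 and Spag7 for Bambi were among the closest 3 by both measures. Acta2 was not among the closest 3 to Bmp4 once the group means were removed. Only the closest 3 were listed, so this does not show how closely Acta2 followed Bmp4 within groups.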

How the data were processed

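Total RNA was measured on Affymetrix mouse gene arrays, 1 per sample. The deposited values are log2 expression values; per the submitters' processing notes the tools included limma, RMA and Affymetrix Expression Console, whose versions and roles are not given in the sources used here. The RMA method corrects background, normalizes by quantiles and summarises probes, so it evens out the arrays (medians 5.54 to 5.62) and compresses differences of dim genes. Of 28853 probe sets 21789 had 1 gene symbol, 1621 several and 5443 none. The probe set with the highest mean stood for each of 19938 genes, and 1851 second probe sets were left out. No low-level filter was applied. The number of arrays limits the precision.

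Samples were grouped by title. The 8 comparisons were fitted by lmFit and eBayes of limma 3.58.1 (R 4.3.3) on all 22 arrays with terms for group, batch and sex, two-sided, with Benjamini-Hochberg adjustment over all genes. The steps were tested on simulated data. Tables and plots used Python 3.11.15, numpy 2.4.6, pandas 2.3.3 and matplotlib 3.10.9. Alternatives were no sex or batch term, other fits and normalizations, a dim-gene filter, male lines, single batches, the replicate number as a block and each array left out. Labels do not say that samples of a group were separate cultures beyond naming lines, so the p-values reflect only how these samples vary, which may be technical.

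Pathway genes were named when called, up to 4 per list and comparison by smallest adjusted p or where a count was 5 or fewer; the genes most like each member were the top 3 by r, leaving out predicted genes. Bmpr1a, Bmpr2, Smad7, Nog, Msx1 and others named with uncalled differences, and the marker genes named with values, were chosen after their values were seen. The 8 genes, the lists and the tests were chosen with earlier results of these data known. Promoter sequences and chromosomes are from RefSeq tables (GRCm38.p6), not used for array coordinates.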

Additional observations from a re-analysis of the deposited data

Results flagged for a closer look

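Of 40 combinations of gene and group searched for a single array apart from the rest, 2 had one, where chance gives about 1 in 20 groups. Id1 on EG 2is array 1 was 5.65, while the other 3 arrays of the group lay between 5.35 and 5.38. Bambi on ES FCS array 3 was 6.71, while the other 4 lay between 6.85 and 6.89.

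Among the 8 genes and all other genes of the lists, Neurog1, a neural basic helix-loop-helix factor, was the one whose response to 2i differed between EG and ES lines by a call (0.42, SE 0.10, adjusted p = 0.0418, limma). Of all genes 1.44% were called in this test, so a single call in lists of this length is not set apart from that share. It was higher in EG 2i than in EG FCS (0.22, adjusted p = 0.0373) and lower in ES 2i than in ES FCS (-0.19, adjusted p = 0.0255). Its group means ran from 4.84 to 5.08, around the background level of 4.88, so the sizes of its differences are not measured.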

How the results depend on the processing

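The values rest on log2 RMA values without detection calls, on 4 or 5 arrays a group, on a batch term that ES arrays alone determine, and on 1 probe set per gene. Among the differences of single genes, no called one changed sign under any alternative run; 1343 values kept their direction and side of the threshold, 13 gained a call, 11 lost one and 65 uncalled ones changed sign.

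In EG 2i against EG FCS 5 of the 8 genes were called, 3 with the arrays compared fitted alone (Id3 and Bambi were lost) and 4 to 5 with each array left out. Leaving out each array gave 5 to 5 in EG 2is against EG FCS, 0 to 0 in EG 2i against EG 2is and in EG FCS against ES FCS, 4 to 5 in ES 2i against ES FCS, 0 to 1 in EG 2i and in EG 2is against ES 2i, and 0 to 2 in the difference of responses. EG 2i against ES 2i had 1 called without the batch term and 1 without the ES FCS and ES 2i arrays numbered 3, an alternative chosen after seeing the data (Id2, -0.83, adjusted p = 0.0149); the difference of responses then also had 1 (Id2, -1.27, adjusted p = 0.0140). With the run code of the sample descriptions in place of batch, also chosen after seeing the data, Id3 lost its call in EG 2i (adjusted p = 0.0540).

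Whether shared replicate numbers pair the samples is not known. Same-numbered ES FCS and ES 2i arrays had correlations of deviations of 0.05, -0.01, 0.17, 0.05 and 0.24, and those of EG FCS with EG 2i -0.13 to 0.07. After the batch and sex terms the ES values were -0.29 to -0.19, while EG FCS array 1 was most like array 1 of EG 2i (0.41) and of EG 2is (0.30). Such correlations cannot show whether arrays came from the same line. With the replicate number as a block, 5, 5, 0 and 4 of the 8 genes were called in EG 2i, EG 2is (each against FCS), EG 2i against EG 2is and ES 2i, and 0 in the difference of responses, the counts without it; of all genes the last count went from 287 to 82. As a random block (correlation 0.01) the counts for the 8 genes were also the same.

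Counts over all genes moved more. EG 2i against EG FCS went from 4764 to 2282 in male lines, EG 2i against EG 2is from 0 to 1 with those arrays alone, and ES 2i against ES FCS from 6298 to 2921 in batch 1. EG FCS against ES FCS went from 2 to 6 without the batch term, 1 with those arrays alone, 4 in male lines and up to 4 with an array left out. EG 2i against ES 2i went from 742 to 1758, 15 and 7 under these 3 settings, and to 301 to 872 with an array left out. EG 2is against ES 2i went from 9 to 33, 0 and 70, to 4 without the sex term, 21 without the arrays numbered 3 and 1 to 43 with an array left out. The difference of responses went from 287 (113 higher, 174 lower) to 469 (98 higher, 371 lower) with arrays centred on their medians, 33 in male lines, 179 with the run code and 110 to 390 with an array left out. The causes were not tested.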
